A study of Homo sapiens with 29 samples.

Results

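Collagens, laminins and the integrin receptors that bind them were followed across knockdown and compound treatment in 2 lung cancer cell lines. Of the 23710 gene symbols in the deposited expression table, 80 had the form of a collagen, laminin or integrin chain: 44 collagen symbols (COL, a number, A and a number), 12 laminin symbols (LAMA, LAMB or LAMC with a number) and 24 integrin symbols (ITGA or ITGB with a number, and ITGAE, ITGAL, ITGAM, ITGAV and ITGAX). A gene was kept when it reached 1 FPKM (a level scaled to gene length and library depth, from fragments per kilobase) in at least 3 knockdown libraries, which left 46 genes: 21 collagens, 10 laminins and 15 integrins. By its third-highest library, the lowest genes inside this limit were COL4A3 at 1.17, LAMA4 at 1.36 and ITGB2 at 1.87 FPKM. ITGA2B, the alpha chain of the platelet fibrinogen receptor, does not have this symbol form and is not among the 46. The nearest outside the limit were COL22A1 at 0.759, COL28A1 at 0.667 and COL15A1 at 0.637 FPKM.

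The RNA-seq data came from 27 libraries, 3 in each of 9 groups. H460 cells carried a short hairpin RNA against NRF2, NR0B1 or SNW1, or against GFP as control, for 72 h, and H2122 cells carried one against NRF2 or GFP for 24 h. The labels name 1 hairpin per target, so every knockdown result belongs to that hairpin, and cell line and time cannot be told apart between H2122 and H460. H460 cells were also exposed for 12 h to 30 µM BPK29, 30 µM BPK9 or the solvent DMSO. Both lines are non-small cell lung cancer lines known to carry KEAP1 mutations, which stabilise NRF2. NRF2, encoded by NFE2L2, is a transcription factor of the antioxidant response, NR0B1 is an orphan nuclear receptor, SNW1 is a splicing factor and transcriptional coregulator, and BPK29 is known as a ligand of NR0B1. Nothing in the labels says that the 3 libraries of a group came from separate cultures, so p-values rest on library-to-library spread that may be technical.

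Collagens are trimers of alpha chains. Fibrillar collagens (types I, II, III and V among them) build fibres, and type IV forms the network of basement membranes. Types VI, VIII, IX, XVII and XVIII form filaments, sheets, fibre decorations or anchors. Laminins are heterotrimers of 1 alpha, 1 beta and 1 gamma chain and are the main adhesive proteins of basement membranes. Integrins are alpha-beta heterodimers that bind these proteins at the cell surface and connect them to the cytoskeleton. In lung epithelium, laminins that hold LAMA3 and LAMB3 are bound by the pair ITGA6 and ITGB4 in hemidesmosomes, and the pair of ITGAV with ITGB6 or ITGB8 activates latent TGF-beta.

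The hairpins lowered their targets. NFE2L2 had 25.8, 26.8 and 27.9 FPKM in H460 shNRF2, against 44, 44.3 and 41.5 in H460 shGFP, and 27.5, 25.8 and 26.5 FPKM in H2122 shNRF2, against 59.5, 58.4 and 57.5 in H2122 shGFP. NR0B1 averaged 18.2 ± 0.924 FPKM in H460 shNR0B1 and 47.6 ± 1.69 in shGFP (SD, n = 3 each), and SNW1 averaged 32.2 ± 1.77 in shSNW1 and 51.2 ± 1.65 in shGFP. NR0B1 was also lower after NRF2 knockdown, at 9.06 ± 0.27 FPKM in H460 shNRF2 against 47.6 ± 1.69 in shGFP, so shNRF2 libraries had less NR0B1 RNA than shNR0B1 libraries. Whole reads recovered from the values summed to between 16709755 and 24613291 per knockdown library and between 19077265 and 24824187 per compound library.

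The 2 lines expressed different collagen, laminin and integrin genes, as the map of levels shows. In the shGFP libraries, 31 of the 46 genes averaged at least 1 FPKM in H2122 and 36 did so in H460, with 25 in both, 6 in H2122 only, 11 in H460 only and 4 in neither. H460 shGFP cells were highest in COL5A2, a chain of type V fibres, at 761 ± 25.3 FPKM, followed by LAMC1 at 318 ± 16.7, LAMB1 at 195 ± 5.49 and the common integrin beta chain ITGB1 at 166 ± 6.58 FPKM (SD, n = 3). ITGB5 at 127 ± 6.38 and COL8A1 at 123 ± 5.23 FPKM followed, and their libraries overlapped. LAMA1, the alpha chain that joins LAMB1 and LAMC1 in the classical laminin of early basement membranes, averaged 89.4 ± 3.74 FPKM there and 0.0125 ± 0.00703 in H2122 shGFP.

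H2122 shGFP cells carried the epithelial set. LAMB3 at 232 ± 10.4 and ITGB1 at 225 ± 6.06 FPKM were highest there and overlapped. ITGA3 averaged 62.8 ± 1.96 and ITGB4 61.4 ± 1.5 FPKM there and overlapped each other (SD, n = 3). LAMB3 and ITGB4 were low in H460 shGFP cells, with LAMB3 at 1.81 ± 0.18 and ITGB4 at 6.13 ± 1.19 FPKM, while COL5A2 averaged only 0.304 ± 0.0562 FPKM in H2122. Epithelial markers differed in part between the lines. All 10 markers (EPCAM, CDH1, KRT7, KRT8, KRT18, KRT19, CLDN4, CLDN7, ESRP1 and ESRP2) averaged at least 1 FPKM in H2122 shGFP and 5 of 10 did so in H460 shGFP, where CDH1, the epithelial cadherin, stood at 0.00957 FPKM. The keratins KRT8 and KRT19 were abundant in both, KRT8 at 599 FPKM in H2122 shGFP and 532 in H460 shGFP, and KRT19 at 781 FPKM in H2122 shGFP and 940 in H460 shGFP. These line differences are levels with no test, since line and time differ together.

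**Figure D1:**
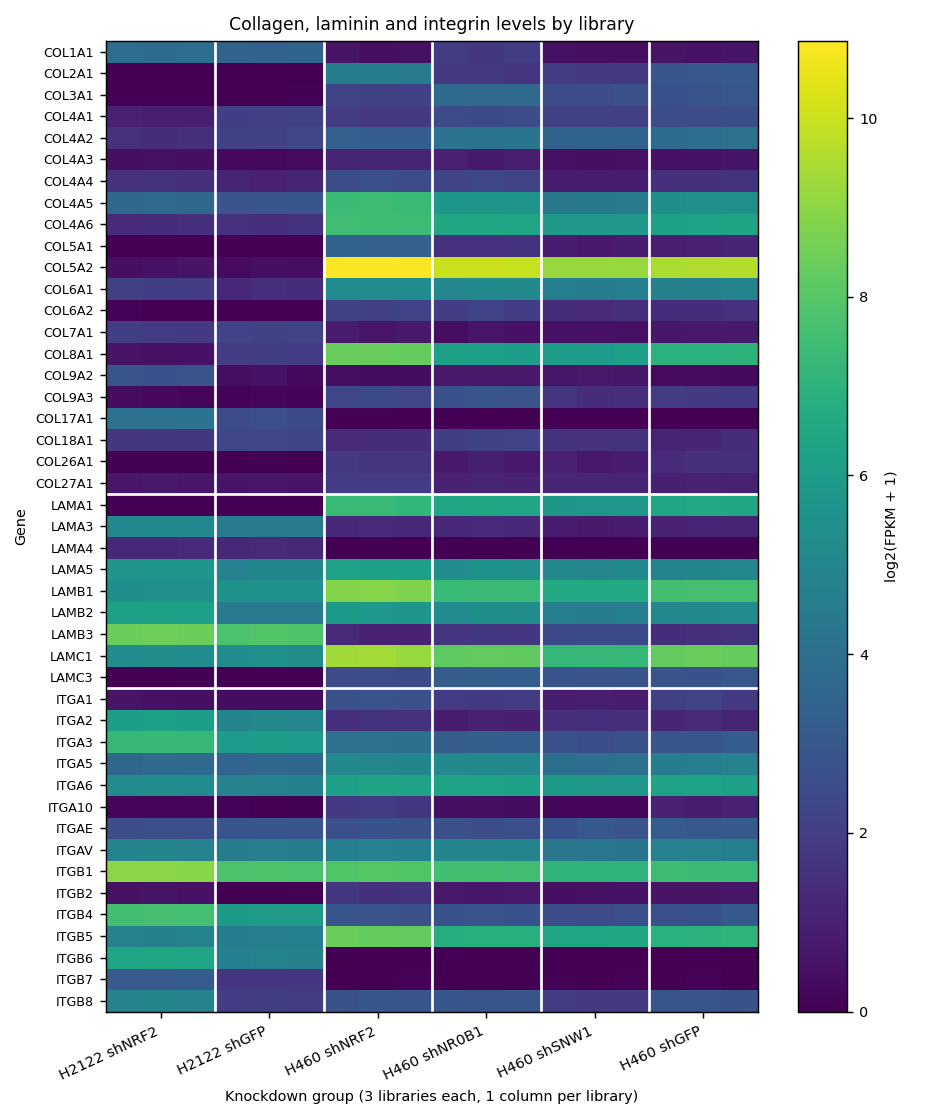
Level of 45 of the genes (rows, grouped as collagens, laminins and integrins) in each of the 18 knockdown libraries (columns, 3 per group), as log2(FPKM + 1) by colour. COL5A2, LAMC1, LAMB1, COL8A1 and ITGB5 are bright in the H460 groups, and LAMB3, ITGB4 and ITGB6 in the H2122 groups.

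NRF2 knockdown in H460 was accompanied by more RNA for most collagen, laminin and integrin genes. Of the 46, 40 passed the filter on low values in the H460 fit, and COL7A1, COL9A2, COL17A1, LAMA4, ITGB6 and ITGB7 did not. Among these 40, 27 were higher and 6 lower in shNRF2 than in shGFP at a Benjamini-Hochberg adjusted p under 0.05 in limma, against 40.9% of all 11938 genes tested being higher and 39.0% lower. All fold changes here are differences of log2(FPKM + 1), so those of low genes come out too small. The libraries of the 2 groups did not overlap for 79.8% of all genes tested. The median change was 0.57 over the 40 genes and 0.01 over all genes tested, and 12 of the 40 were called with a change of at least 1, against 11.7% of all genes. By family, 13 of 18 collagens tested rose and 3 fell, 6 of 9 laminins rose and 2 fell, and 8 of 13 integrins rose and 1 fell. The higher counts include COL4A3 and ITGB2, which passed the filter only through shNRF2, the group where they were high. In these bulk libraries, fewer cells of a kind and less RNA per cell cannot be told apart.

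Among fibrillar collagens of types I, II, III and V, the type V and type II chains rose and the type III chain fell. COL5A1, the partner of COL5A2 in type V fibres, had 9.55, 8.99 and 8.95 FPKM in shNRF2, against 0.903, 0.973 and 1.23 in shGFP. The groups were far apart, with an 8.85-fold ratio of means, and the log2 change was 2.32 (SE 0.0637, limma adjusted p = 1.07e-12). COL5A2 had 1838, 1864 and 1772 FPKM in shNRF2, against 736, 761 and 786 in shGFP. All shNRF2 libraries lay above all shGFP libraries, the ratio of means was 2.4 and the log2 change 1.26 (SE 0.0304, limma adjusted p = 3.69e-13). COL2A1, the cartilage collagen, had 23.4, 22.6 and 21.1 FPKM in shNRF2, against 6.5, 6.81 and 7.55 in shGFP, again without overlap, and its log2 change was 1.56 (SE 0.0602, limma adjusted p = 2.39e-11). COL3A1, which forms fibres with type I collagen in connective tissue, went the other way. It had 3.62, 3.39 and 3.36 FPKM in shNRF2, against 5.72, 6.06 and 6.76 in shGFP, a log2 change of -0.68 (SE 0.0576, limma adjusted p = 7.98e-08). COL1A1 was under 1 FPKM in all 6 of these libraries, with a change of -0.08 that did not pass the test.

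The 6 type IV chains of basement membranes split into their gene pairs. Each pair lies head to head on 1 chromosome and is read outward from a shared region. COL4A5 had 167, 173 and 161 FPKM in shNRF2, against 41.2, 43.7 and 43.1 in shGFP, and COL4A6 had 182, 180 and 172 FPKM in shNRF2, against 74, 77.1 and 80.6 in shGFP. Both were higher in every shNRF2 library, with log2 changes of 1.94 (SE 0.0385, limma adjusted p = 8.5e-14) and 1.20 (SE 0.0345, limma adjusted p = 1.55e-12). COL4A4 rose by 1.06 and COL4A3, near the limit on level, by 0.58 on the log2 scale. COL4A3 reached 1 FPKM only in the H460 shNRF2 libraries, so its rise is partly set by the filter. The pair found in nearly all basement membranes fell. COL4A1 had 2.69, 2.5 and 2.57 FPKM in shNRF2, against 4.97, 4.78 and 5.02 in shGFP, and COL4A2 had 9.21, 8.61 and 8.44 FPKM in shNRF2, against 13.5, 14.2 and 15.9 in shGFP. Neither gene's groups overlapped, and the log2 changes were -0.72 (SE 0.0477, limma adjusted p = 5.85e-09) and -0.67 (SE 0.0518, limma adjusted p = 3.31e-08).

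The promoters of these pairs are shown because the 2 genes of each pair changed in the same direction in H460 shNRF2. The sequences are RefSeq windows on build GRCh38.p14, from 250 bases before to 50 after each gene start, 5′ to 3′ on the gene's own strand. Capitals mark the core of the NRF2-bound element, TGACNNNGC read on either strand. COL4A6 had 2 windows, and the one shown was chosen because it overlaps the COL4A5 window. The distance, shared bases and base composition given for this pair rest on that choice. The windows lie at chrX:108439588-108439887 (+ strand) for COL4A5, chrX:108439409-108439708 (- strand) for COL4A6, chr13:110307108-110307407 (- strand) for COL4A1, chr13:110307034-110307333 (+ strand) for COL4A2, chr2:227164374-227164673 (+ strand) for COL4A3 and chr2:227164156-227164455 (- strand) for COL4A4.
COL4A5: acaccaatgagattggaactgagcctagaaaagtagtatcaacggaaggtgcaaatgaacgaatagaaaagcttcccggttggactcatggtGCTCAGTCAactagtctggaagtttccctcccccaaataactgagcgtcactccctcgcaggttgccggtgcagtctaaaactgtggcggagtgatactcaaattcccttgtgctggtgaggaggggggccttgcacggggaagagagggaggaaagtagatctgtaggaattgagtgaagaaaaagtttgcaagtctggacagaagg
COL4A6: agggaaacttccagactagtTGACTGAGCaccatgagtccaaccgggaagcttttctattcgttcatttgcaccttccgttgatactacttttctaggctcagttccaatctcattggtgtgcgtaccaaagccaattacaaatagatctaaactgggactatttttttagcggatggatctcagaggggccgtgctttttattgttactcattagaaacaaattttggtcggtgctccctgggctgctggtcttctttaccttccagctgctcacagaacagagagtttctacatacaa
COL4A1: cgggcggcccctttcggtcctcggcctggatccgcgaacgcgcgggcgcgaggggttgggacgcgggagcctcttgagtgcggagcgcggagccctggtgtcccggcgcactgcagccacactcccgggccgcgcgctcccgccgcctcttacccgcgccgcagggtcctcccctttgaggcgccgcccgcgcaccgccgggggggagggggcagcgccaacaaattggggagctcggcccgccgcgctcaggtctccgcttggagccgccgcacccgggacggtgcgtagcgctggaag
COL4A2: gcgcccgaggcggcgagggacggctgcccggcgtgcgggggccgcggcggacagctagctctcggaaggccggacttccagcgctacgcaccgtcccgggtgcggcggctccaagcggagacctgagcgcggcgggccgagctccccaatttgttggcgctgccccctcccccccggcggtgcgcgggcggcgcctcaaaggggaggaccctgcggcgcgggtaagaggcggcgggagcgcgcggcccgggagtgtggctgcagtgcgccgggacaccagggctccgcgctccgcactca
COL4A3: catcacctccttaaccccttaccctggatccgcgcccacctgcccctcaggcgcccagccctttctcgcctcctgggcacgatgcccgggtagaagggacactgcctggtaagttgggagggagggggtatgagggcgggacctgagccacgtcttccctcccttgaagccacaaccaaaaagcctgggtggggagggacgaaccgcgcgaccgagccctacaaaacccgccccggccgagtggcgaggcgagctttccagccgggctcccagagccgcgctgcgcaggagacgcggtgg
COL4A4: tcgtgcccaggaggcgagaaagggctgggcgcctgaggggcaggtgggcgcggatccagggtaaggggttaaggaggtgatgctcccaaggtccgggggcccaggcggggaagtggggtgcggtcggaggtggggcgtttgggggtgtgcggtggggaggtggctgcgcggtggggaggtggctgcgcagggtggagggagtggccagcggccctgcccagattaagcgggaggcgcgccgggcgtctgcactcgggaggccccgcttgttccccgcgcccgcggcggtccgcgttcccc
The starts of COL4A5 and COL4A6 lay 380 bases apart and their windows shared 121 bases, which held the only NRF2 core match of the 6 windows, GCTCAGTCA as read on the COL4A5 strand at position -158 from that gene's start, and TGACTGAGC at position -230 from the COL4A6 start. The COL4A1 and COL4A2 starts lay 127 bases apart and those of COL4A3 and COL4A4 419 bases apart, with 226 and 82 bases shared. Base composition separated the pairs: 49.3% and 43.7% of bases were G or C in the COL4A5 and COL4A6 windows, against 76.7% and 77.7% for COL4A1 and COL4A2 and 67.7% and 74% for COL4A3 and COL4A4. RefSeq windows were found for 33 of the 46 genes (43 windows, since some genes have several starts). The NRF2 core occurred in 5 of the 43 windows, or 11.6%, and in 13.3% of all 35116 promoter windows of the table, and the AP-1 element TGANTCA in 3 of 43, or 6.98%, and in 7.71% of all windows. The other matches of the NRF2 core were in windows of ITGA1, ITGB1 and ITGB5, and those of AP-1 in LAMA3, LAMB3 and ITGA5. A match describes letters in a window and no binding site.

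Of the remaining collagens, COL8A1, a short-chain sheet collagen, had 326, 321 and 312 FPKM in shNRF2, against 120, 121 and 129 in shGFP. The groups did not overlap and the log2 change was 1.37 (SE 0.0394, limma adjusted p = 1.55e-12). COL27A1 (0.91), COL6A2 (0.66), COL6A1 (0.49), COL9A3 (0.49) and COL26A1 (0.29) rose by smaller log2 steps, and COL18A1 had a change of 0.12 that did not pass the test.

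The laminin chains that H460 cells expressed most rose together in shNRF2. LAMB1 had 464, 473 and 430 FPKM in shNRF2, against 189, 200 and 196 in shGFP, LAMC1 had 628, 657 and 581 FPKM in shNRF2, against 304, 337 and 313 in shGFP, and LAMA5, the alpha chain of mature basement membranes, had 76, 72.8 and 68.4 FPKM in shNRF2, against 28.5, 30.3 and 31.8 in shGFP. Every shNRF2 library exceeded every shGFP library for each of these chains. Their log2 changes were 1.22 for LAMB1 (SE 0.0375, limma adjusted p = 2.78e-12), 0.96 for LAMC1 (SE 0.046, limma adjusted p = 1.92e-10) and 1.24 for LAMA5 (SE 0.0619, limma adjusted p = 3.27e-10). LAMA1 rose by 0.80 and LAMB2, which can replace LAMB1 in a trimer, by 0.67. LAMB3 and LAMC3 fell, by 0.33 and 0.34 on the log2 scale. LAMA3, at 0.15, passed the test narrowly (limma adjusted p = 0.0289).

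Among integrins in H460, ITGB5 had the largest change on the log2(FPKM + 1) scale, while the lower ITGB2 and ITGA10 had larger ratios of means, 4.04 and 2.54 against 2.5. ITGB5 encodes a beta chain that pairs with ITGAV and binds vitronectin. ITGB5 had 329, 314 and 306 FPKM in shNRF2, against 121, 125 and 134 in shGFP, with no overlap and a log2 change of 1.31 (SE 0.0375, limma adjusted p = 1.43e-12). Its partner ITGAV had 25, 27 and 25.3 FPKM in shNRF2, against 27.6, 27.3 and 24.9 in shGFP, and these libraries overlapped (log2 change -0.05, limma adjusted p = 0.371). ITGA3, an alpha chain that binds laminins, had 16.3, 15.4 and 15.2 FPKM in shNRF2, against 6.46, 6.55 and 7.89 in shGFP, a log2 change of 1.07 (SE 0.0634, limma adjusted p = 1.93e-09). ITGB1, the beta chain of ITGA3 and of most matrix-binding integrins, had 239, 255 and 242 FPKM in shNRF2, against 172, 168 and 159 in shGFP, and rose by 0.56. The collagen-binding alpha chains tested all rose as well, with log2 changes of 0.83 for ITGA10, 0.66 for ITGA1 and 0.37 for ITGA2. ITGB2, the leukocyte beta chain, was low but rose by 1.02, at 2.1 ± 0.272 FPKM in shNRF2 and 0.52 ± 0.0637 in shGFP (SD, n = 3 each). ITGB2 reached 1 FPKM only in the H460 shNRF2 libraries. It entered the set through the group where it was high, so its rise is partly set by the filter. ITGA6, ITGB4 and ITGB8 had changes of 0.02, 0.01 and 0.03 that did not pass the test, and ITGAE, the partner of ITGB7 that binds E-cadherin, fell by 0.39.

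**Figure D2:**
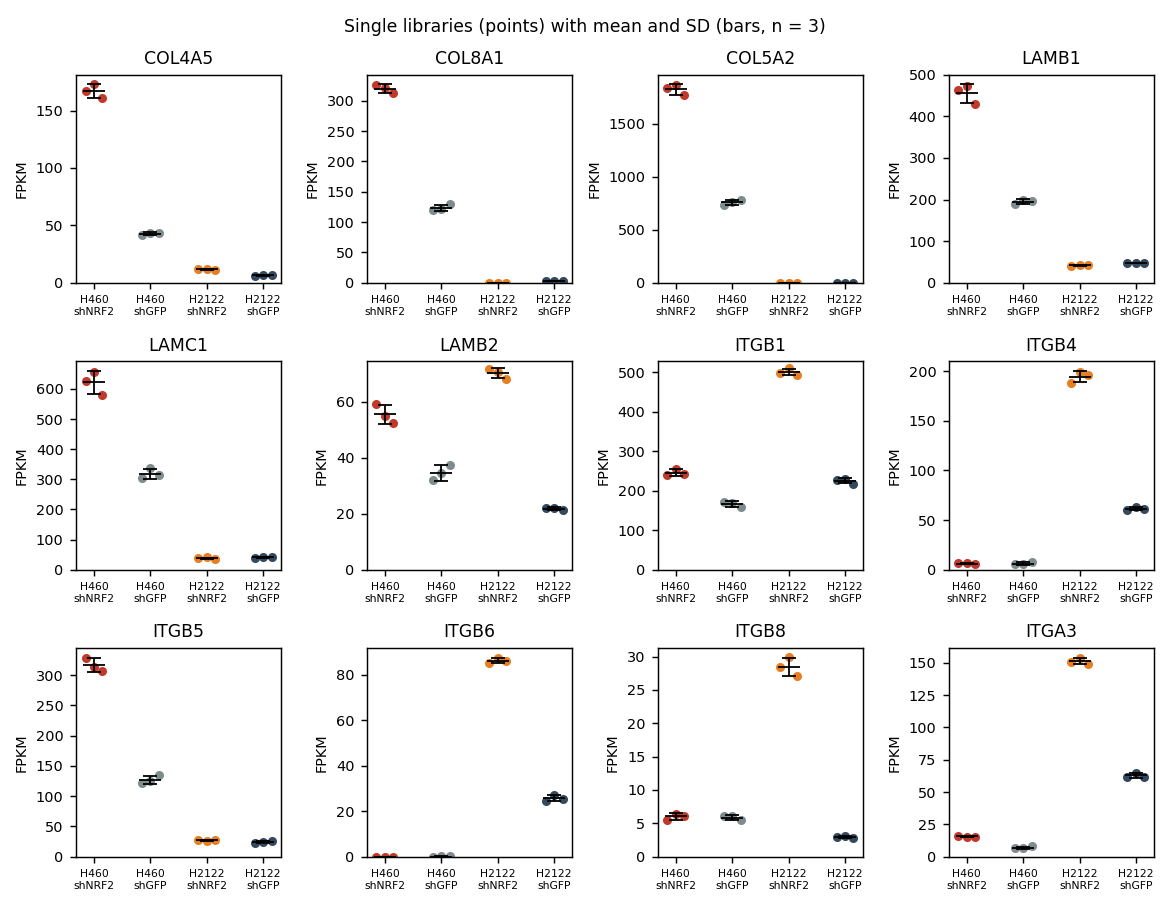
FPKM of 12 genes in single libraries (points) with mean and SD (bars, n = 3) in shNRF2 and shGFP of H460 (left pair) and H2122 (right pair), each panel with its own linear axis. COL4A5, COL8A1, COL5A2, LAMB1, LAMC1 and ITGB5 stand highest in H460 shNRF2, and LAMB2, ITGB1, ITGB4, ITGB6, ITGB8 and ITGA3 in H2122 shNRF2.

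Genes outside the set that act with it were counted by list in H460 shNRF2. Over all genes tested there, 40.9% were higher and 39.0% lower. Of 6 tested basement membrane partners, 5 rose and 1 fell. The largest changes were PXDN, the peroxidasin that crosslinks type IV collagen, at 1.72 (SE 0.0461, limma adjusted p = 8.68e-13), SMOC1 at 1.46 and EGFLAM at 1.21. NID2, a nidogen that links laminin to type IV collagen, was at -0.45. Of 20 tested genes of collagen modification and secretion, 17 rose and 2 fell, with P4HA3, a prolyl hydroxylase subunit, at 1.63 and PLOD1, a lysyl hydroxylase, at 1.62. Of 15 tested ligands of integrins outside the set, 12 rose and 3 fell, led by FBN2 at 1.92, VTN at 1.75, MFGE8 at 1.68 and FBN1 at 1.56. Of 23 adhesion adaptors inside the cell, 7 rose and 11 fell, and their median of -0.05 lay close to the 0.01 of all genes. Non-integrin matrix receptors counted 9 higher and 3 lower of 13, with CD9 at 1.27 and SDC4 at -1.14, and hemidesmosome partners 3 higher and 1 lower of 4.

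Some fibroblast markers were higher in these libraries as well. The summed level of 8 such markers was 59.3 to 61 FPKM in H460 shNRF2 libraries and 28 to 29.9 in shGFP libraries. DCN (2.66), LUM (1.33), PDGFRB (0.64) and ACTA2 (0.39), the 4 tested, all rose on the log2 scale. POSTN (periostin), which was not tested, averaged 0.123 FPKM in shNRF2 and 0.541 in shGFP. The defining fibroblast markers PDGFRA, THY1 and FAP averaged at most 0.00881 FPKM in shNRF2 and at most 0.0264 in shGFP. The endothelial receptor KDR averaged 3.48 FPKM in shNRF2 and 0.819 in shGFP, while PECAM1, CDH5 and CLDN5 averaged at most 0.0175 in either. Immune markers summed to 28.4 to 31.9 FPKM in shNRF2 and 29.1 to 33.1 in shGFP, with PTPRC, CD3E and MS4A1 averaging at most 0.0164. Of 7 tested epithelial markers, KRT19 rose and 6 fell, with KRT18, a keratin of simple epithelia, at -1.09. The part of these markers in the result was not tested.

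In H2122, more genes of the set were higher than lower after NRF2 knockdown. Of the 46 genes, 32 passed the filter on low values there. COL2A1, COL3A1, COL4A3, COL5A1, COL5A2, COL6A2, COL9A3, COL26A1, COL27A1, LAMA1, LAMC3, ITGA1, ITGA10 and ITGB2 did not. Of the 32, 21 were higher and 7 lower in shNRF2 than in shGFP, against 48.8% of all 11710 genes tested being higher and 38.5% lower, and 88.4% of all genes had groups that did not overlap. The median log2 change was 0.54, against 0.09 over all genes, and 13 of the 32 were called with a change of at least 1, against 18.1% of all genes. Integrins counted 10 higher and 1 lower of 12, with a median of 1.13. Laminins counted 5 higher and 1 lower of 8, and collagens 6 higher and 5 lower of 12. Scaling all libraries to a common total would raise the median of all genes in this comparison by 0.13, and median-ratio scaling would change it by -0.13, so small changes here depend on the scaling.

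ITGB8, a TGF-beta activating partner of ITGAV, had the largest change on the log2(FPKM + 1) scale. COL9A2, a lower gene that passed the filter only through shNRF2, had a larger ratio of means. ITGB8 had 28.4, 29.9 and 27.1 FPKM in shNRF2, against 2.97, 3.1 and 2.72 in shGFP. The ratio of means was 9.72 and the log2 change 2.91 (SE 0.0503, limma adjusted p = 6e-11). ITGB6, the epithelial chain that activates TGF-beta with ITGAV, had 85.4, 87.3 and 85.9 FPKM in shNRF2, against 24.5, 27.1 and 25.4 in shGFP. No library of either group reached the other, and the log2 change was 1.71 (SE 0.0358, limma adjusted p = 1.51e-10). ITGAV itself rose by 0.28, with 28.6, 29.9 and 27.6 FPKM in shNRF2, against 23.5, 23.9 and 22.8 in shGFP. ITGB7 had 7.69, 7.77 and 8.08 FPKM in shNRF2, against 2.06, 2.13 and 2.28 in shGFP (log2 change 1.49, SE 0.0483, limma adjusted p = 2.22e-09), while its partner ITGAE fell by 0.28.

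The hemidesmosomal and laminin-binding chains rose as well. ITGB4 had 188, 199 and 196 FPKM in shNRF2, against 60, 63 and 61.4 in shGFP, and its log2 change was 1.65 (SE 0.0285, limma adjusted p = 6e-11). Its only known partner ITGA6 had 36.9, 39.4 and 38.1 FPKM in shNRF2, against 26.9, 27.1 and 26.5 in shGFP. Both were separated by group, but ITGA6 rose only by 0.49 on the log2 scale. ITGA3 had 151, 154 and 149 FPKM in shNRF2, against 61.4, 65.1 and 62 in shGFP, and ITGB1 had 499, 510 and 494 FPKM in shNRF2, against 227, 230 and 218 in shGFP. Every shNRF2 library lay far above every shGFP library for both, with log2 changes of 1.26 (SE 0.0268, limma adjusted p = 1.66e-10) and 1.15 (SE 0.0252, limma adjusted p = 1.92e-10). The collagen receptor chain ITGA2 rose by 1.10, whereas ITGA5, the fibronectin receptor chain, had a change of 0.13 with overlapping groups (limma adjusted p = 0.0561).

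The epithelial laminin chains LAMB3 and LAMA3 rose. LAMB3 had 343, 355 and 347 FPKM in shNRF2, against 222, 242 and 232 in shGFP, and LAMA3 had 32.6, 35.4 and 32.8 FPKM in shNRF2, against 20.7, 20.9 and 21.4 in shGFP. These were non-overlapping rises of 0.58 and 0.65 on the log2 scale. LAMB2 changed more, with 71.7, 70.5 and 68.2 FPKM in shNRF2, against 22.1, 22 and 21.3 in shGFP (log2 change 1.64, SE 0.0283, limma adjusted p = 6e-11). LAMA5 rose by 0.77. LAMB1 was at -0.16, a call that depended on the scaling (-0.02 at a common total, limma adjusted p = 0.482), and LAMC1 at -0.09 did not pass the test.

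Collagens in H2122 moved in both directions. COL9A2, a chain of the type IX collagen that decorates cartilage fibres, had 6.15, 5.72 and 5.79 FPKM in shNRF2, against 0.335, 0.446 and 0.218 in shGFP. Its groups lay 17.7-fold apart by their means, with a log2 change of 2.37 (SE 0.0713, limma adjusted p = 1.33e-09). COL9A2 reached 1 FPKM in no knockdown libraries other than the 3 of H2122 shNRF2. It entered the set and this fit through the group where it was high. Its rise and its place among the higher genes are thus partly set by the filter. COL17A1, the transmembrane collagen of hemidesmosomes, had 16.3, 16.3 and 16.4 FPKM in shNRF2, against 4.55, 5.22 and 4.47 in shGFP (log2 change 1.60, SE 0.0519, limma adjusted p = 2.25e-09). COL4A5 rose by 0.78, COL6A1 by 0.62 and COL1A1 and COL4A4 by 0.47 each. COL4A6 had a change of -0.14 that did not pass the test (limma adjusted p = 0.0558). COL8A1 had 0.489, 0.391 and 0.437 FPKM in shNRF2, against 2.65, 3.06 and 2.71 in shGFP, a log2 change of -1.40 (SE 0.0647, limma adjusted p = 2.38e-08). It passed the filter of this fit only through shGFP, the group where it was high. COL4A1 had 1.01, 0.878 and 0.91 FPKM in shNRF2, against 3.08, 3.17 and 3.43 in shGFP, a log2 change of -1.13 (SE 0.0592, limma adjusted p = 5.9e-08), and its pair partner COL4A2 was at -0.69. COL18A1 (-0.57), a basement membrane collagen, and COL7A1 (-0.26), which anchors epithelial basement membranes to the tissue below, were lower as well.

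The 4 tested partners of the hemidesmosome were higher in H2122 shNRF2, where 48.8% of all genes tested were higher and 38.5% lower. They were PLEC (1.07), DST (0.81), ERBB2IP (0.69) and CD151 (0.47). Among other lists, 15 of 23 adhesion adaptors rose and 5 fell, with FERMT1, the epithelial kindlin, at 1.55 and PARVB at -1.85. Non-integrin receptors counted 10 higher and 3 lower of 13, including LGALS8 at 1.93, CD9 at 1.89, the laminin receptor BCAM at 1.73 and the collagen receptor DDR1 at 1.67. Of 7 basement membrane partners, 6 rose and 1 fell, with PXDN at 1.90 and SMOC2 at -2.22. Of 11 other integrin ligands, 8 rose and 3 fell, with FN1 (fibronectin) at 1.06 and SPP1 (osteopontin) at -3.00. Genes of collagen modification were divided, 8 higher and 9 lower of 19. Epithelial markers summed to 7444 to 7741 FPKM in shNRF2 libraries and 5079 to 5150 in shGFP libraries, with 8 of 10 higher, led by KRT19 at 1.31. Immune markers summed to 106 to 109 FPKM in shNRF2 and 46.3 to 47.5 in shGFP, through LYZ, CD79A and CD68, while PTPRC averaged 0.00202 in shNRF2 and 0 in shGFP and CD3E and MS4A1 were at 0. The part of these markers in the result was not tested.

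Setting the lines side by side, 26 of the genes were tested in both. Of these, 10 were higher in shNRF2 than in shGFP in both lines, namely COL4A4, COL4A5, COL6A1, LAMA3, LAMA5, LAMB2, ITGA2, ITGA3, ITGB1 and ITGB5, and COL4A1, COL4A2 and ITGAE were lower in both. The calls were opposite for 3 genes: COL8A1, LAMB1 and LAMB3. Of all 10731 genes tested in both lines, 29.7% were higher in both, 29.0% lower in both and 12.8% had opposite calls. At a common total the H2122 change of LAMB1 was -0.02 and did not pass the test (limma adjusted p = 0.482), so its opposite call depended on the scaling. For ITGB5 the H2122 change was 0.15 and depended on the scaling. The size of the change differed between lines, by an interaction term in limma, for 41 of the 46 genes, against 71.6% of all 12798 genes tested. These counts include genes that were low in 1 line. Of the 26 genes tested in both lines it differed for 22, and the like share over all genes was not computed. The largest of these differences, given as the H2122 change minus the H460 change, were 2.87 for ITGB8 (SE 0.0848, limma adjusted p = 1.64e-11), -2.77 for COL8A1 (SE 0.0653, limma adjusted p = 2.68e-12), 1.63 for ITGB4, -1.38 for LAMB1 and -1.34 for COL4A6. For COL4A2, COL6A1, ITGA3 and ITGAE the difference did not pass the test, with values of -0.02, 0.13, 0.19 and 0.11.

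**Figure D3:**
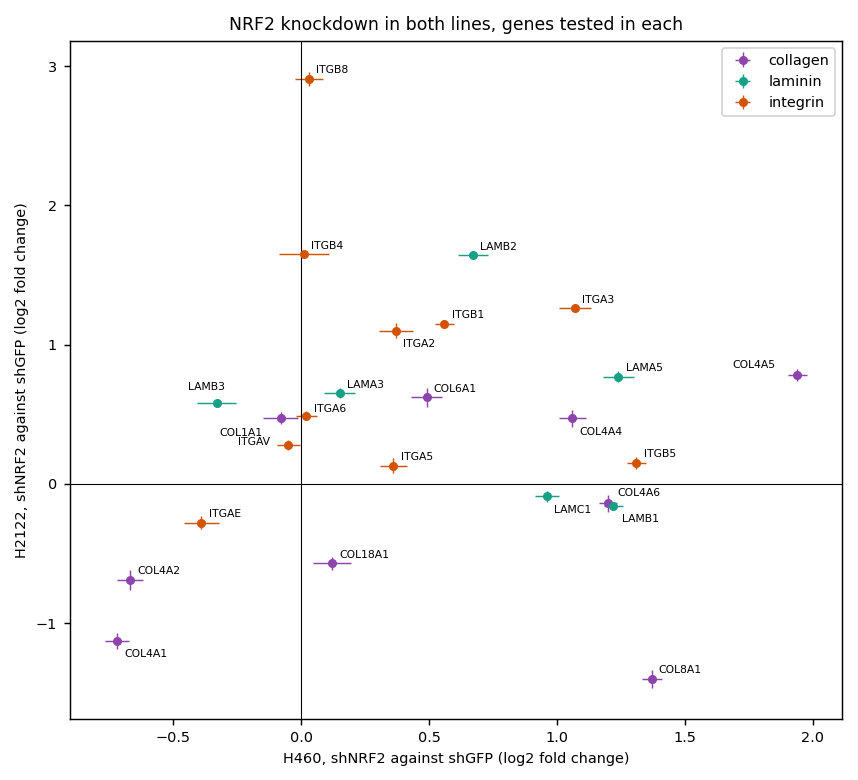
Log2 fold change of shNRF2 against shGFP in H460 (horizontal axis) and H2122 (vertical axis) for 25 of the 26 genes tested in both lines, with SE bars and colour by family. ITGB8 and ITGB4 lie high on the vertical axis near 0 in H460, COL8A1 lies at lower right, and COL4A1, COL4A2 and ITGAE lie at lower left.

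NR0B1 knockdown in H460 gave smaller changes. Of 40 genes tested, 22 were higher and 8 lower in shNR0B1 than in shGFP, against 33.1% of all genes tested being higher and 36.8% lower, with a median of 0.16 against -0.02 over all genes. Groups did not overlap for 72.0% of all genes. Only 2 of the 40 were called with a change of at least 1, COL1A1 and COL2A1, against 2.86% of all genes. COL1A1 passed the filter of the H460 fit only through shNR0B1, so its call is partly set by the filter. Collagens counted 13 higher and 3 lower of 18, laminins 5 higher and 1 lower of 9, and integrins 4 higher and 4 lower of 13. Scaling to a common total would raise the median of all genes here by 0.11. It would turn the split over all genes to 5293 higher and 3050 lower, against 3946 and 4391, and that of the set to 25 higher and 7 lower.

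Among fibrillar chains, COL1A1 and COL3A1 rose in shNR0B1, and COL2A1 fell. COL3A1 had 12.7, 12 and 12 FPKM in shNR0B1, against 5.72, 6.06 and 6.76 in shGFP, and the log2 change was 0.88 (SE 0.0576, limma adjusted p = 1.59e-08). COL1A1 had 2.75, 2.39 and 2.87 FPKM in shNR0B1, against 0.506, 0.44 and 0.521 in shGFP (log2 change 1.30, SE 0.0689, limma adjusted p = 2.17e-09). In H460 it reached 1 FPKM only in the shNR0B1 libraries, the group where it was high. COL2A1 had 2.57, 2.48 and 2.22 FPKM in shNR0B1, against 6.5, 6.81 and 7.55 in shGFP, a log2 change of -1.21 (SE 0.0602, limma adjusted p = 1.12e-09). None of these groups overlapped. COL1A2, which was below the limit on level, averaged 0.0174 FPKM in shNR0B1 and 0.00359 in shGFP. COL8A1 had 70.4, 69.4 and 67.5 FPKM in shNR0B1, against 120, 121 and 129 in shGFP, and fell by 0.83. COL9A3 had 5.7, 6.49 and 6.16 FPKM in shNR0B1, against 2.81, 2.55 and 2.55 in shGFP, and rose by 0.97. COL5A2 had 1010, 1021 and 981 FPKM in shNR0B1, against 736, 761 and 786 in shGFP, and rose by 0.40, with COL5A1 at 0.53. In type IV collagen, COL4A4 rose by 0.72, COL4A3 by 0.35, COL4A5 by 0.27, COL4A2 by 0.23 and COL4A6 by 0.17, and COL4A1 was at -0.04 with overlapping groups.

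Laminin changes in shNR0B1 ran between -0.25 and 0.48 on the log2 scale, and integrin changes between -0.60 and 0.40. ITGA2B, outside the set by its symbol, changed by more: it averaged 9.21 FPKM in shNR0B1 and 3.32 in shGFP (log2 change 1.25, SE 0.11, limma adjusted p = 2.77e-07). LAMA5 had 38.8, 46.1 and 43.1 FPKM in shNR0B1, against 28.5, 30.3 and 31.8 in shGFP (log2 change 0.48, SE 0.0619, limma adjusted p = 1.11e-05), and LAMC3 rose by 0.42. LAMB1 had 161, 170 and 161 FPKM in shNR0B1, against 189, 200 and 196 in shGFP, and fell by 0.25, while LAMC1 (-0.11) and LAMA1 (-0.05) did not pass the test. ITGA5 had 33.4, 32.8 and 32.6 FPKM in shNR0B1, against 23.2, 24.2 and 27 in shGFP, and rose by 0.40. ITGAE had 5.48, 4.9 and 5.26 FPKM in shNR0B1, against 7.93, 7 and 7.36 in shGFP, and fell by 0.44, and ITGA10 fell by 0.60. All 6 tested basement membrane partners rose, led by PXDN at 0.87 and AGRN (agrin) at 0.63. Of 20 genes of collagen modification, 12 rose and 3 fell, with PLOD1 at 1.42 and the collagen chaperone SERPINH1 at -0.66. Other lists were divided. Integrin ligands outside the set counted 6 higher and 6 lower of 15, and non-integrin receptors 5 and 6 of 13. Adhesion adaptors counted 9 higher and 6 lower of 23, and hemidesmosome partners 2 and 1 of 4. Over all genes tested, 33.1% were higher and 36.8% lower. Fibroblast markers summed to 24.1 to 25.4 FPKM in shNR0B1 libraries and 28 to 29.9 in shGFP libraries. Epithelial markers summed to 1224 to 1251 FPKM in shNR0B1 libraries and 1985 to 2266 in shGFP libraries, with KRT18 (-1.04) and KRT19 (-0.87) lower and CLDN7 (1.20) and CLDN4 (1.19) higher on the log2 scale. Immune markers summed to 34.6 to 38.5 FPKM in shNR0B1 and 29.1 to 33.1 in shGFP, and the monocyte marker CD14 averaged 10.7 FPKM in shNR0B1 and 5.38 in shGFP. The part of these markers in the result was not tested.

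SNW1 knockdown lowered most of the set. Of 40 genes tested, 4 were higher and 28 lower in shSNW1 than in shGFP, against 30.8% of all genes tested being higher and 36.4% lower, and the median was -0.36 against -0.03 over all genes. At a common total the split over all genes was 4758 higher and 3345 lower, against 3671 and 4349, and that of the set was 5 higher and 26 lower. Groups did not overlap for 69.5% of all genes, and 4 of the 40 were called with a change of at least 1, against 2.39%. Collagens counted 13 lower of 18, laminins 5 lower of 9 and integrins 10 lower of 13. The 4 that rose were COL18A1 (0.34), COL27A1 (0.15), LAMB3 (0.96) and ITGA2 (0.29).

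The 3 chains of the LAMA1, LAMB1 and LAMC1 laminin fell in shSNW1. LAMC1 had 149, 155 and 152 FPKM in shSNW1, against 304, 337 and 313 in shGFP, LAMB1 had 97.5, 99.5 and 97.7 FPKM in shSNW1, against 189, 200 and 196 in shGFP, and LAMA1 had 53.4, 54.9 and 54.9 FPKM in shSNW1, against 85.3, 92.7 and 90.2 in shGFP. Every shSNW1 library lay below every shGFP library for these chains. Their log2 changes were -1.06 for LAMC1 (SE 0.046, limma adjusted p = 3.9e-10), -0.98 for LAMB1 (SE 0.0375, limma adjusted p = 1.34e-10) and -0.71 for LAMA1 (SE 0.0473, limma adjusted p = 2.37e-08). LAMB3 had 4.47, 4.48 and 4.44 FPKM in shSNW1, against 1.66, 1.76 and 2.01 in shGFP, while LAMA3 fell by 0.29. LAMA5 had a change of 0.13 that did not pass the test (limma adjusted p = 0.0814).

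Among collagens, COL4A5 had 19.5, 19.9 and 20.7 FPKM in shSNW1, against 41.2, 43.7 and 43.1 in shGFP, a log2 change of -1.05 (SE 0.0385, limma adjusted p = 1.02e-10). COL2A1 had 2.82, 2.62 and 2.59 FPKM in shSNW1, against 6.5, 6.81 and 7.55 in shGFP (log2 change -1.11, SE 0.0602, limma adjusted p = 3.09e-09), and COL8A1 had 66.4, 62.9 and 69.1 FPKM in shSNW1, against 120, 121 and 129 in shGFP (log2 change -0.89, SE 0.0394, limma adjusted p = 4.73e-10). COL4A1, COL4A2, COL4A4 and COL4A6 fell by 0.45, 0.46, 0.65 and 0.40. Among integrins, ITGB8 had 2.65, 2.53 and 2.49 FPKM in shSNW1, against 6.03, 6.03 and 5.49 in shGFP (log2 change -0.94, SE 0.0555, limma adjusted p = 6.59e-09), and the collagen receptor chain ITGA1 averaged 0.817 ± 0.0405 FPKM in shSNW1 and 3.19 ± 0.562 in shGFP (SD, n = 3 each), a log2 change of -1.20. ITGA5 had 15.3, 14.8 and 16.3 FPKM in shSNW1, against 23.2, 24.2 and 27 in shGFP, and ITGB5 had 86, 84.8 and 86.9 FPKM in shSNW1, against 121, 125 and 134 in shGFP. These 2 chains and ITGAV, which had 18.9, 18.2 and 17.7 FPKM in shSNW1, against 27.6, 27.3 and 24.9 in shGFP, were lower in each shSNW1 library, by 0.65, 0.55 and 0.52 on the log2 scale.

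Of 15 other integrin ligands, 13 fell in shSNW1 and none rose, including EDIL3 at -1.20 and FN1 at -0.82. Of 20 genes of collagen modification and secretion, 11 fell and 4 rose, with PCOLCE2 at -1.91, PLOD2 at -1.08 and SERPINH1 at -1.03. Basement membrane partners were divided, 2 higher and 3 lower of 6, with NID2 at -1.19. Non-integrin receptors counted 3 higher and 6 lower of 13, and hemidesmosome partners 2 and 1 of 4. Over all genes tested, 30.8% were higher and 36.4% lower. Adhesion adaptors were divided, 10 higher and 9 lower of 23. Fibroblast markers summed to 32.1 to 33.4 FPKM in shSNW1 libraries and 28 to 29.9 in shGFP libraries. Epithelial markers summed to 1898 to 1959 FPKM in shSNW1 and 1985 to 2266 in shGFP, and the part of these markers was not tested.

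**Figure D4:**
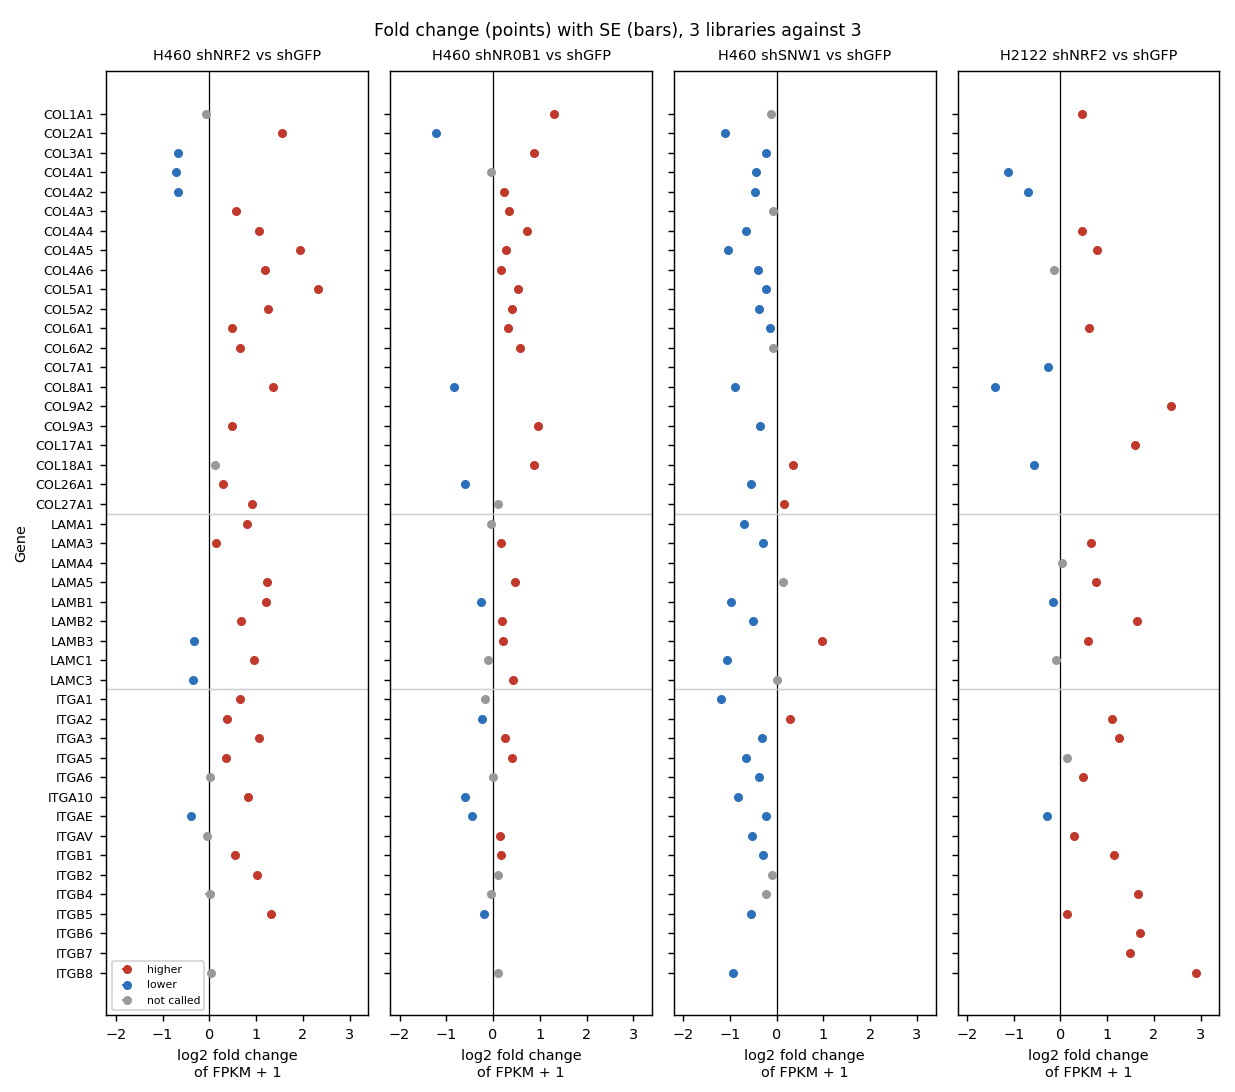
Log2 fold change (points; SE bars mostly lie within the points) of 45 of the genes against shGFP of the same line, for H460 shNRF2, shNR0B1 and shSNW1 and H2122 shNRF2, coloured by call; a gene without a point was not tested there. Most points lie right of 0 in the NRF2 panels (27 of 40 and 21 of 32 genes tested were higher) and left of 0 in the SNW1 panel (28 of 40 genes tested were lower).

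The 3 H460 knockdowns share their shGFP libraries, so shNRF2 was tested directly against shNR0B1, and shNR0B1 against shSNW1. The difference between shNRF2 and shSNW1 was not tested. Of the 40 genes, 23 were higher and 9 lower in shNRF2 than in shNR0B1, against 37.8% and 36.7% of all genes tested. COL2A1 differed most, at 22.4 ± 1.19 FPKM in shNRF2 and 2.42 ± 0.18 in shNR0B1 (log2 difference 2.77, SE 0.0602, limma adjusted p = 1.45e-13), followed by COL8A1 at 319 ± 6.87 and 69.1 ± 1.47 FPKM in those groups (log2 difference 2.19). COL3A1 was at -1.57, LAMB1 at 1.47 and ITGB5 at 1.51. Between shNR0B1 and shSNW1, 31 of the 40 were higher and 3 lower in shNR0B1, against 34.7% and 33.1% of all genes tested. COL4A5 averaged 51.6 ± 1.62 FPKM in shNR0B1 and 20 ± 0.64 in shSNW1 (log2 difference 1.32, SE 0.0385, limma adjusted p = 1.23e-11), and COL9A3, COL3A1, ITGA5 and ITGB8 differed by 1.32, 1.12, 1.04 and 1.04. COL8A1, lowered by both hairpins, differed by 0.06 and did not pass the test (limma adjusted p = 0.174).

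Compound treatment is given as ratios to the DMSO mean only, because the compound columns of the table use other gene lengths than the knockdown columns. COL17A1, LAMA4, ITGA10, ITGB2, ITGB6 and ITGB7 did not pass the filter on low values there. After 12 h of BPK29, 4 of 40 genes tested were higher and 23 lower than in DMSO, against 21.1% of all 11461 genes tested being higher and 29.3% lower, with a median of -0.18 against -0.02 over all genes. Groups did not overlap for 59.6% of all genes. The count of higher genes was 2 without BPK29 library 2, without DMSO library 1 or without DMSO library 2. At a common total these counts were 9 higher and 21 lower, with 3847 higher and 2203 lower over all genes against 2418 and 3359, and with median-ratio scaling 7 and 22. Of 20 collagens, 13 were lower and none higher, of 9 laminins 6 lower and none higher, and of 11 integrins 4 lower and 4 higher.

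COL26A1, a collagen first known from mouse testis and ovary, was lowest relative to DMSO. Its ratios were 0.408, 0.363 and 0.453 in BPK29 and 1.04, 1.1 and 0.861 in DMSO, with a log2 change of -1.08 (SE 0.0835, limma adjusted p = 8.27e-06). It was the only gene of the set called with a change of at least 1, against 0.366% of all genes. COL5A1 had ratios of 0.533, 0.532 and 0.494 in BPK29 and 1, 1.05 and 0.945 in DMSO (log2 change -0.85, SE 0.059, limma adjusted p = 4.6e-06). COL3A1 had ratios of 0.59, 0.588 and 0.599 in BPK29 and 1.05, 1.01 and 0.944 in DMSO (log2 change -0.74, SE 0.0354, limma adjusted p = 5.39e-07). COL2A1 had ratios of 0.597, 0.5 and 0.513 in BPK29 and 0.922, 1.08 and 0.997 in DMSO (log2 change -0.77, SE 0.0685, limma adjusted p = 1.8e-05). None of these 4 collagens had a BPK29 library as high as a DMSO library. The abundant COL5A2 had ratios of 0.759, 0.725 and 0.747 in BPK29 and 0.995, 0.989 and 1.02 in DMSO, and COL8A1 of 0.776, 0.731 and 0.755 in BPK29 and 0.974, 0.985 and 1.04 in DMSO. Every BPK29 library lay below every DMSO library for both genes, with log2 changes of -0.43 and -0.41. COL7A1, COL9A2, COL4A4, COL27A1, COL4A2, COL4A3 and COL4A6 were lower as well, and COL4A5 had a change of 0.04 that did not pass the test.

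LAMB1 had ratios of 0.743, 0.686 and 0.698 in BPK29 and 0.981, 0.975 and 1.04 in DMSO (log2 change -0.49, SE 0.0437, limma adjusted p = 1.92e-05). LAMC1 (-0.18) and LAMA3 (-0.29) fell by less. ITGB8 had ratios of 0.477, 0.556 and 0.488 in BPK29 and 0.95, 1.01 and 1.04 in DMSO, and was the integrin that fell most (log2 change -0.83, SE 0.0539, limma adjusted p = 2.99e-06). ITGB5 was at -0.32. The 4 integrins that rose were ITGB4 (0.42), ITGA2 (0.17), ITGA5 (0.17) and ITGB1 (0.07). Of 16 other integrin ligands 13 fell, led by THBS1 (thrombospondin) at -1.30, and 5 of 6 basement membrane partners fell, with no gene of either list rising. Genes of collagen modification were divided, 4 higher and 9 lower of 19, with SERPINH1 at -0.66 and a median of -0.02, as over all genes. Adhesion adaptors counted 5 higher and 10 lower of 24, non-integrin receptors 2 and 3 of 13, and hemidesmosome partners 1 and 1 of 4. Over all genes tested, 21.1% were higher and 29.3% lower.

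BPK9, at the same dose and time, gave no called gene in the set. In limma 0 of 40 genes passed the threshold and 3 had an unadjusted p under 0.05, and over all genes 1 was called, which is 0.00873% of those tested. On recovered reads with limma-voom, which called 135 genes higher and 114 lower over all genes, 1 gene of the set was called, COL3A1, with a log2 change of -0.15 (adjusted p = 0.0164). Its ratios were 0.912, 0.885 and 0.901 in BPK9 and 1.05, 1.01 and 0.944 in DMSO. The 95% intervals of the log2 changes lay between -0.34 and 0.34 over the 40 genes. Tested against each other, BPK29 libraries were higher than BPK9 libraries for 4 genes and lower for 22, against 19.7% and 27.2% of all genes tested, or 8 and 20 at a common total, where all genes split into 3444 higher and 2195 lower against 2258 and 3121. The higher count was 2 without BPK29 library 1 or BPK9 library 2. COL26A1 differed by -1.02 (SE 0.0835, limma adjusted p = 1.52e-05), COL5A1 by -0.76 (SE 0.059, limma adjusted p = 1.06e-05), ITGB8 by -0.74 and COL2A1 by -0.67. This was 1 of 3 pairs of compound groups compared.

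**Figure D5:**
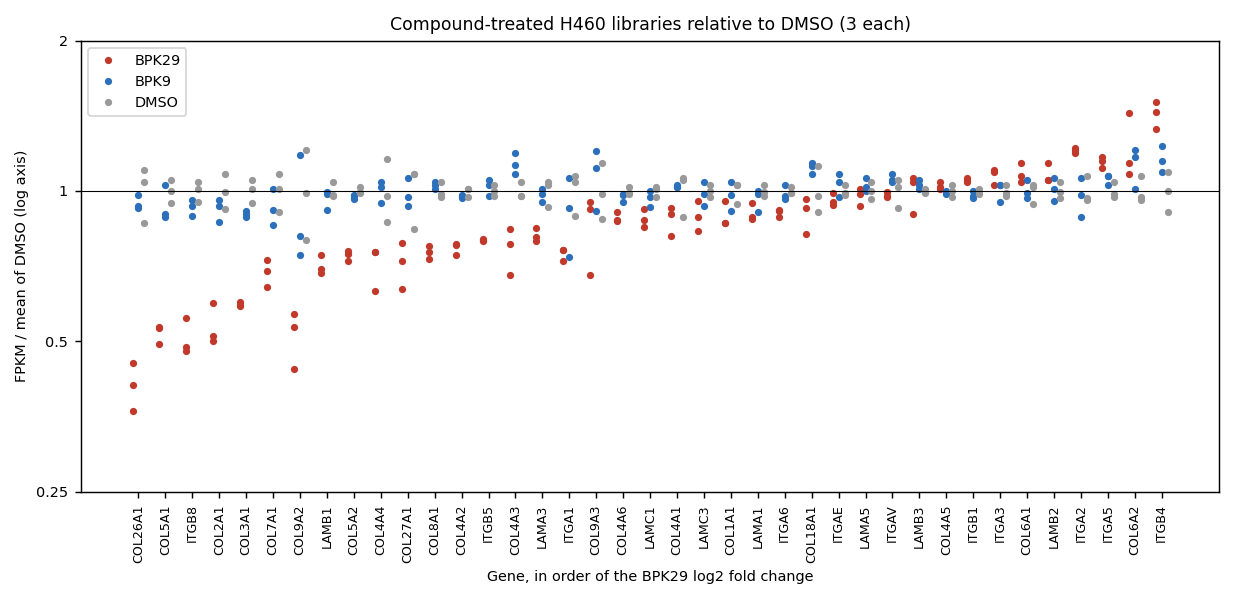
Ratio of each library to the DMSO mean (log axis) for 39 of the 40 genes tested, ordered by the BPK29 log2 fold change, with 3 points each for BPK29, BPK9 and DMSO. BPK29 points fall to 0.363 for COL26A1 at the left and reach 1.51 for ITGB4 at the right, while BPK9 points lie on both sides of 1.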

How the data were processed

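RNA-seq values of 27 libraries were used. The authors deposited FPKM per gene in 1 table of the whole series, scaled per gene length and library depth, and the submitters' processing notes name STAR, featureCounts, DESeq2, Bowtie2, HOMER and hg19, with versions and roles not given in the sources used here. Per the labels, libraries were made with a TruSeq kit; the strand setting of the counting was not given in the sources used here, so antisense and overlapping genes cannot be separated. Compound columns use other gene lengths than knockdown columns, so they are used as ratios only, and 28 symbols have no compound value. Whole reads were recovered from the deposited FPKM steps for 100% of 17497 knockdown and 15824 compound genes checked (tolerance 0.02 reads), giving the depths stated in the report.

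Values were tested as log2(FPKM + 1), with a pseudocount of 1, in limma 3.58.1 (R 4.3.3) with a mean-variance trend over all genes reaching 1 FPKM in at least 3 libraries of the fit. Calls are Benjamini-Hochberg adjusted p under 0.05 over all genes tested. H460 knockdowns shared 1 fit of 4 groups, H2122 had a fit of 2 groups, the difference between lines was an interaction term, and the compounds shared 1 fit of 3 groups. The code was tested on simulated data. Tables were handled with Python 3.11.15, numpy 2.4.6 and pandas 2.3.3.

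Members and lists were chosen with earlier results of these data known. Named members were those with the largest change among called genes with non-overlapping groups and a higher group mean of at least 5 FPKM, up to 10 a comparison, with their pairing chains; from each list, up to 4 called genes with the largest change were eligible. Other genes were named after their values were seen, as were the voom fits on recovered reads. One gene of the set is in the counts but is not reported here by name. NR0B1 ChIP peaks, on hg19, were not analysed here.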

Additional observations from a re-analysis of the deposited data

Results flagged for a closer look

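The change after NRF2 knockdown was compared between the lines by an interaction term in limma. At an adjusted p under 0.05 it differed for 22 of the 26 genes tested in both, and 21 are given here. The term also passed for 71.6% of all 12798 genes tested. The share over all genes tested in both lines was not computed. Each difference is the H2122 log2 change minus the H460 log2 change, and line cannot be told apart from time (24 h and 72 h).

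Integrin chains mostly had the larger change in H2122, with ITGB8 at 2.87, ITGB4 at 1.63, ITGA2 at 0.73, ITGB1 at 0.59, ITGA6 at 0.47 and ITGAV at 0.33. ITGB5 at -1.17 and ITGA5 at -0.23 went the other way, and the ITGA5 difference was -0.18 at a common total and no longer passed (limma adjusted p = 0.0574).

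Among laminins, the epithelial chains LAMB3 (0.92) and LAMA3 (0.50), and LAMB2 (0.97), changed more toward higher values in H2122. LAMB1 (-1.38), LAMC1 (-1.06) and LAMA5 (-0.47) did so in H460.

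Collagen differences were negative for COL8A1 (-2.77), COL4A6 (-1.34), COL4A5 (-1.16), COL18A1 (-0.69), COL4A4 (-0.59) and COL4A1 (-0.40), and positive for COL1A1 (0.55).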

How the results depend on the processing

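For genes of the set, a pseudocount of 0.1 left the side of the threshold the same in 377 of 378 tests, and median-ratio scaling in 367. ITGB5 in H2122 shNRF2 against shGFP, at 0.15, reversed to -0.00 with median-ratio scaling (limma adjusted p = 0.998) and was 0.05 with voom (adjusted p = 0.24). A common total made 18 new calls and ended 10, among them LAMB1 in H2122 (-0.02, limma adjusted p = 0.482), and the cause was not tested. Leaving out 1 library at a time ended a call in 64 of 2397 tests and made a new one in 31. BPK29 against DMSO had 4 genes higher, against 9 at a common total, 7 with median-ratio scaling, 7 with voom and 2 to 4 without 1 library. BPK29 against BPK9 had 4 higher, against 8 at a common total, 7 with voom and 2 to 5 without 1 library. BPK9 against DMSO had 0 lower and 1 with voom. Basement membrane partners called in shSNW1 numbered 5, and 3 to 4 without 1 library. With the replicate number as a block, 27 genes were higher and 6 lower in H460 shNRF2, and 22 and 8 in H2122 shNRF2. Correlations of same-numbered libraries' deviations ran between -0.0933 and 0.13, so the numbers were not taken as pairs; in H2122 shNRF2 and in BPK9 all 3 libraries correlated best with their own number.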
